A study of Mus musculus with 8 samples.

Results

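Transforming growth factor beta (TGF-beta) signalling was examined through 10 genes in splenic regulatory T (Treg) cells with a high or a low level of the transcriptional repressor Bach2. The 10 genes are the ligand Tgfb1, the receptor chains Tgfbr1 and Tgfbr2, the signal transducers Smad2, Smad3 and Smad4, the inhibitory Smad7, and the co-repressors Ski, Skil and Tgif1. They were chosen by name, and each matched 1 Ensembl gene model, 10 of the 36811 in the deposited table. All 10 passed the filter on low values that left 11260 models for testing. Gene expression was measured by RNA sequencing as FPKM, fragments scaled to transcript length and library size, which allows levels to be compared between genes per length.

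The cells came from spleens of C57BL/6 mice aged 12 to 13 weeks with the genotype Foxp3EGFP-DTR Bach2tdRFP/+. All libraries of both groups thus carry a Foxp3 allele that marks Treg cells with green fluorescence together with the diphtheria toxin receptor, and a red fluorescent reporter in 1 of the Bach2 alleles. Cell sorting on GFP and then on the red reporter gave Treg cells with much (HI) or little (LO) Bach2-RFP, no other treatment being named. Each of these populations has 4 libraries, labelled F1 and F2 (female) and M1 and M2 (male). Whether a library holds cells of 1 animal or of several, and whether equally labelled HI and LO libraries share an animal, is not given in the sources used here, so the spread behind each p-value is that of the libraries and may be technical. In bulk RNA, fewer cells of a type that carries a transcript and less of it per cell cannot be told apart.

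Bach2 itself checks the labels. It stood at 15.6 ± 5.56 FPKM in HI and 0.691 ± 0.187 in LO libraries (SD, n = 4 each), without overlap. Foxp3 stood at 14.2 ± 0.783 and 14.7 ± 3.97. Cd3e and Cd4, which define helper T cells, were above 0 in all 8 libraries, with Cd4 ranging over 263 to 617 FPKM among HI and 243 to 615 among LO libraries. Of the 6 markers of CD4 T and Treg cells, Il2ra, the CD25 chain of the interleukin receptor that marks Treg cells, was the 1 that passed: it fell from 75.6 ± 8.83 to 27.7 ± 5.13 FPKM in LO, without overlap (limma log2 difference -1.42, adjusted p = 0.00149). Relative depth, read from the steps between low values with HI F1 as 1, ran from 0.636 in HI M1 to 5.27 in LO M2, and the other 6 libraries lay between 0.818 and 1.27.

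TGF-beta is secreted as a latent complex and, once released, binds the type II receptor chain, which recruits and phosphorylates the type I chain. The type I chain phosphorylates Smad2 and Smad3, which join Smad4 and enter the nucleus to regulate genes, while Smad7 blocks this step at the receptor and Ski, Skil and Tgif1 repress transcription at Smad-bound sites. In T cells the pathway is known for holding back effector differentiation, for inducing Foxp3 in peripheral cells and for inducing the integrin chain CD103.

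None of the 10 genes differed between LO and HI cells at an adjusted p below 0.05 in limma. Of all tested genes 8.29% did (4.65% higher and 3.64% lower in LO), a share at which 0 of 10 is not unusual. At an unadjusted p below 0.05 there was 1 member, Smad4, against 20.9% of the tested genes. Which member this was depended on the scaling. With scaling to protein-coding nuclear genes the unadjusted limma p was 0.0199 for Smad2 and 0.0572 for Smad4. The log2 differences of the 10, LO minus HI on the scale of log2(FPKM + 1), ran from -1.14 for Smad4 to 0.48 for Smad3, with a median of -0.08, and the median over all tested genes was -0.03. Of the 10 estimates, 4 lay above and 6 below 0. These genes were thus measured in both populations without a detected difference, and the intervals given below show how large a difference the libraries leave possible.

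**Figure D1:**
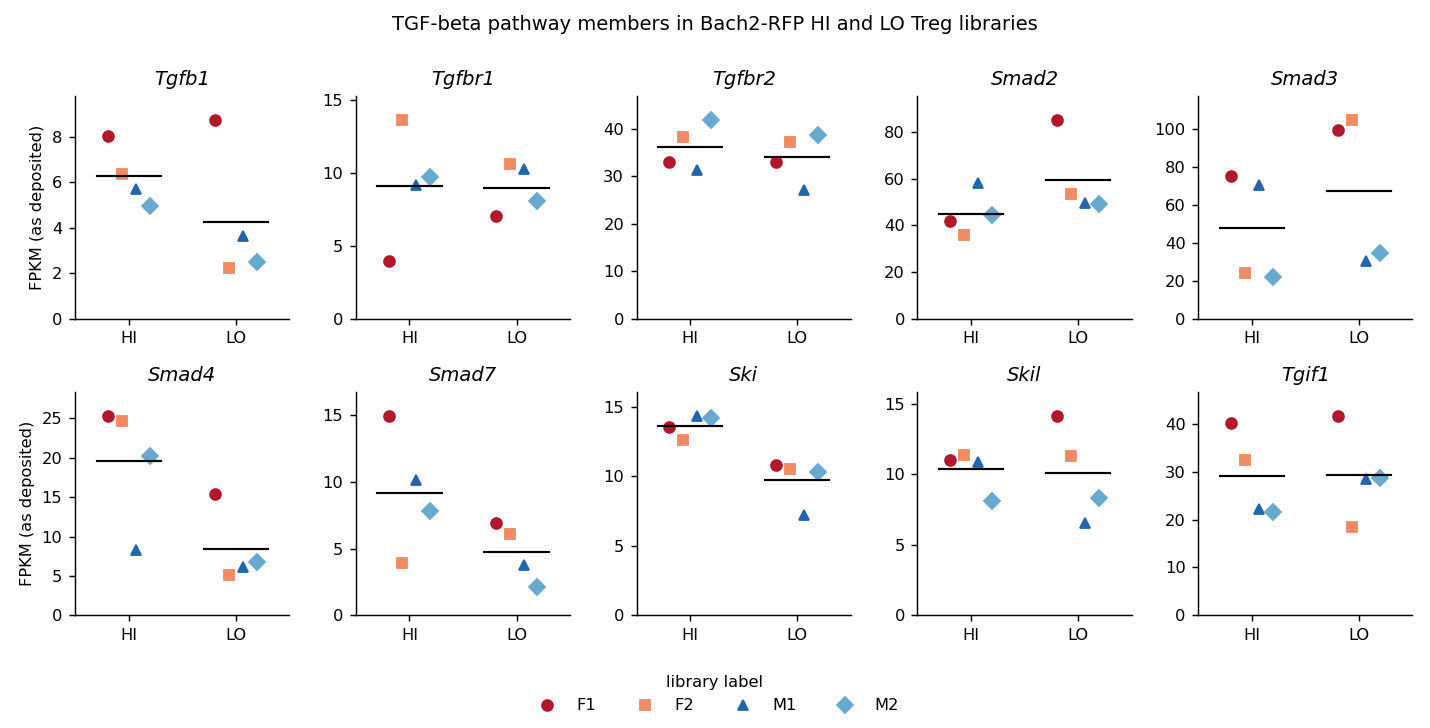
FPKM of the 10 genes in each library, as deposited, with HI and LO libraries on the x axis, 1 point per library by label and the mean of 4 libraries as a bar. Only for Ski do all 4 LO values (7.18 to 10.8) lie below all 4 HI values (12.6 to 14.3), while the 4 values of Smad3 are widely spread in both groups.

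Tgfb1 encodes the ligand that Treg cells secrete in latent form. Its FPKM in F1, F2, M1 and M2 was 8.04, 6.37, 5.70 and 4.96 in HI and 8.77, 2.22, 3.63 and 2.48 in LO libraries. Of the LO libraries, 3 lay below every HI library, and LO F1 lay above them all. The log2 difference was -0.60 (95% interval -1.48 to 0.28, limma adjusted p = 0.439).

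Neither receptor chain differed by a detectable amount, and of the 10 genes Tgfbr2 had the smallest standard error. Tgfbr2, the type II chain, was at 33.0, 38.2, 31.4 and 42.0 FPKM in HI and 33.0, 37.3, 27.1 and 38.7 in LO libraries. The ranges almost coincide, and the log2 difference was -0.09 (95% interval -0.52 to 0.34, limma adjusted p = 0.85). With its standard error of 0.193, a log2 difference of 0.72 or more in size would have passed the test. Tgfbr1, the type I kinase chain, was at 3.95, 13.7, 9.21 and 9.71 FPKM in HI and 7.09, 10.6, 10.3 and 8.06 in LO libraries. HI F1 was the lowest and HI F2 the highest of all 8, and the LO values lay between them. Its log2 difference was 0.07 (95% interval -0.73 to 0.87, limma adjusted p = 0.944).

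Smad2 and Smad3 are the receptor-regulated Smads that carry the signal to the nucleus. Smad2 was at 41.7, 36.0, 58.0 and 44.3 FPKM in HI and 85.3, 53.2, 49.5 and 49.3 in LO libraries. LO F1 stood above the rest, and the other 3 LO libraries lay within a narrow band below the highest HI library. The log2 difference of 0.37 had a 95% interval from -0.14 to 0.89 (limma adjusted p = 0.409). Smad3 was at 75.3, 24.2, 70.7 and 21.9 FPKM in HI and 99.7, 105, 30.3 and 34.6 in LO libraries. Both groups split into a high and a low pair: the high HI libraries were F1 and M1, and the high LO libraries were F1 and F2. With that spread its log2 difference of 0.48 had the widest interval of the 10, -0.73 to 1.69 (limma adjusted p = 0.683), and only a difference of 2.01 or more would have passed.

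Smad4 is the common partner that both receptor-regulated Smads need to act on most target genes. It was at 25.3, 24.6, 8.30 and 20.3 FPKM in HI and 15.4, 5.09, 6.17 and 6.79 in LO libraries, so 3 LO libraries lay below every HI library and LO F1 lay above HI M1. The means were 19.6 ± 7.87 and 8.37 ± 4.75 (SD, n = 4 each), a ratio of 2.34 of HI to LO. The log2 difference of -1.14 (95% interval -2.09 to -0.19) did not pass over all genes (limma adjusted p = 0.154). The call turned on HI M1, the library of least depth: without it the difference was -1.49 with a limma adjusted p of 0.0455, in a fit in which 6.8% of the genes tested passed. In the other alternatives the adjusted p of Smad4 lay between 0.0714 and 0.312. An annotated processed pseudogene overlaps Smad4, and how the authors counted reads there is not stated, which leaves its level uncertain to that extent.

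Smad7, the inhibitory Smad, is itself induced by TGF-beta and closes a feedback loop. It was at 14.9, 3.91, 10.1 and 7.82 FPKM in HI and 6.95, 6.07, 3.80 and 2.16 in LO libraries. HI F2 lay among the LO values, and the other 3 HI libraries lay above all of them. The log2 difference was -0.79 (95% interval -1.77 to 0.19, limma adjusted p = 0.345).

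Ski was the member with the least spread among HI libraries and the only one of the 10 whose groups did not overlap. It encodes a nuclear co-repressor that binds Smad complexes. Its FPKM was 13.5, 12.6, 14.3 and 14.2 in HI and 10.8, 10.5, 7.18 and 10.3 in LO libraries, 13.6 ± 0.790 against 9.70 ± 1.69 (SD, n = 4 each). The log2 difference of -0.47 (95% interval -0.99 to 0.06) did not pass over all genes (limma adjusted p = 0.298). An exact permutation test of the mean FPKM gave p = 0.0286 (two-sided), which no comparison of 4 with 4 libraries can go below. Of all tested genes, 15.1% likewise had groups that did not overlap, 7.18% with LO lower and 7.9% with LO higher.

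The other co-repressors did not differ by a detectable amount. Skil, a relative of Ski known as SnoN, was at 11.05, 11.4, 10.9 and 8.12 FPKM in HI and 14.1, 11.3, 6.57 and 8.34 in LO libraries. The LO values surround the HI values, and the log2 difference was -0.07 (95% interval -0.72 to 0.57, limma adjusted p = 0.92). Tgif1, a homeodomain repressor that competes with co-activators for Smad2 and Smad3, was at 40.1, 32.5, 22.2 and 21.6 FPKM in HI and 41.6, 18.5, 28.5 and 28.6 in LO libraries. The F1 library was the highest in each group, and the log2 difference was 0.0026 (95% interval -0.65 to 0.66, limma adjusted p = 0.997). A processed pseudogene of Tgif1 is annotated, so reads could be shared with it, and the Tgif1 level is uncertain to that extent.

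**Figure D2:**
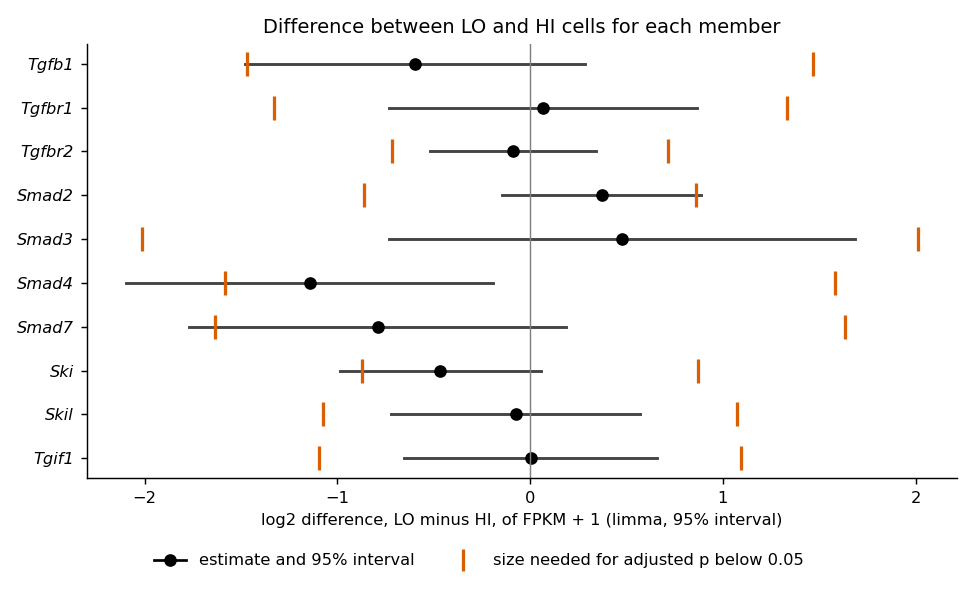
Log2 difference, LO minus HI, of FPKM + 1 for each of the 10 genes (x axis), with the limma estimate as a point, its 95% interval as a line and the size that would have given an adjusted p below 0.05 as orange ticks. No estimate reaches its ticks, and the interval of Smad4 (-2.09 to -0.19) alone does not cover 0.

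Promoter sequences are shown for Ski, whose groups did not overlap, and for Tgif1, the co-repressor with no measured shift, as a pair of genes with the same role. They are the 250 bases before the most upstream start in RefSeq (build GRCm38.p6), both read on the minus strand, at chr4:155222536-155222785 for Ski and chr17:70853533-70853782 for Tgif1. Capitals mark matches, on either strand, to TGAGTCA (the core that AP-1 and Bach proteins bind), GTCTAGAC (the palindromic Smad element) or CAGACA (the Smad box).
Ski: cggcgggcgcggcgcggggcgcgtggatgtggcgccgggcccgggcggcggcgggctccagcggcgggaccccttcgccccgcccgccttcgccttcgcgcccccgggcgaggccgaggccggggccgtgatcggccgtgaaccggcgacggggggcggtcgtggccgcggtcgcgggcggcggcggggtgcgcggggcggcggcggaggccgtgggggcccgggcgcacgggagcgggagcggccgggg
Tgif1: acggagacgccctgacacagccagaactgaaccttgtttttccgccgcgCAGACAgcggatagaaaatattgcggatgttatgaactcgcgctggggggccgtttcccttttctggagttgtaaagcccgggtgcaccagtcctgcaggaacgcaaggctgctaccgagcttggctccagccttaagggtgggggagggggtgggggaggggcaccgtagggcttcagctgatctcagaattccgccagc

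The Ski stretch holds none of the 3 motifs and has a GC content of 87.6%, and the Tgif1 stretch holds 1 Smad box and has a GC content of 59.6%. RefSeq windows of 300 bases, which add 50 bases after the start, were matched for 6 of the 10 genes, 11 windows in all. Of these, 3 hold CAGACA (of Tgfbr1 and Tgif1), and 0 hold TGAGTCA or GTCTAGAC. Over all 32851 windows the shares are 21%, 5.2% and 0.213%. A match describes these letters only.

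Per length, Smad3, Smad2 and Tgfbr2 had the highest mean levels of the 10 in both groups, and Tgfb1 the lowest. In HI libraries the order of mean FPKM was Smad3 (48.0), Smad2 (45.01), Tgfbr2 (36.2), Tgif1 (29.1), Smad4 (19.6), Ski (13.6), Skil (10.4), Smad7 (9.19), Tgfbr1 (9.14) and Tgfb1 (6.26). Neighbours in this order had overlapping values except Ski above Skil. In LO libraries the order was Smad3 (67.5), Smad2 (59.3), Tgfbr2 (34.0), Tgif1 (29.3), Skil (10.1), Ski (9.70), Tgfbr1 (9.01), Smad4 (8.37), Smad7 (4.75) and Tgfb1 (4.27). There Smad2 above Tgfbr2 and Tgif1 above Skil were the neighbours without overlap. Smad4 stood at rank 5 in HI and rank 8 in LO libraries, with overlapping neighbours in both.

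Ratios between 2 Smads within a library do not depend on how libraries were scaled. They were formed after the values were seen and are given without a test. Smad2 exceeded Smad4 by 1.65, 1.46, 6.99 and 2.19 times in HI and by 5.53, 10.4, 8.03 and 7.25 times in LO libraries, so HI M1 lay among the LO libraries and the other 3 HI libraries below all of them. The ratio of Smad3 to Smad4 was 0.983 to 8.52 in HI and 4.91 to 20.7 in LO libraries, where HI M1 again lay among the LO libraries. Smad3 exceeded Smad7 by 5.05, 6.20, 6.99 and 2.81 times in HI and by 14.4, 17.3, 7.96 and 16.0 times in LO libraries, without overlap. This was the only ratio formed without overlap, and neither gene passed by itself (limma adjusted p = 0.683 and 0.345). How often ratios of other genes lack overlap was not tested. The ratio of Smad3 to Smad2 was 0.495 to 1.803 in HI and 0.612 to 1.98 in LO libraries and overlapped almost wholly. The ratio of Tgfbr2 to Tgfbr1 was 2.79 to 8.35 in HI and 2.64 to 4.81 in LO.

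**Figure D3:**
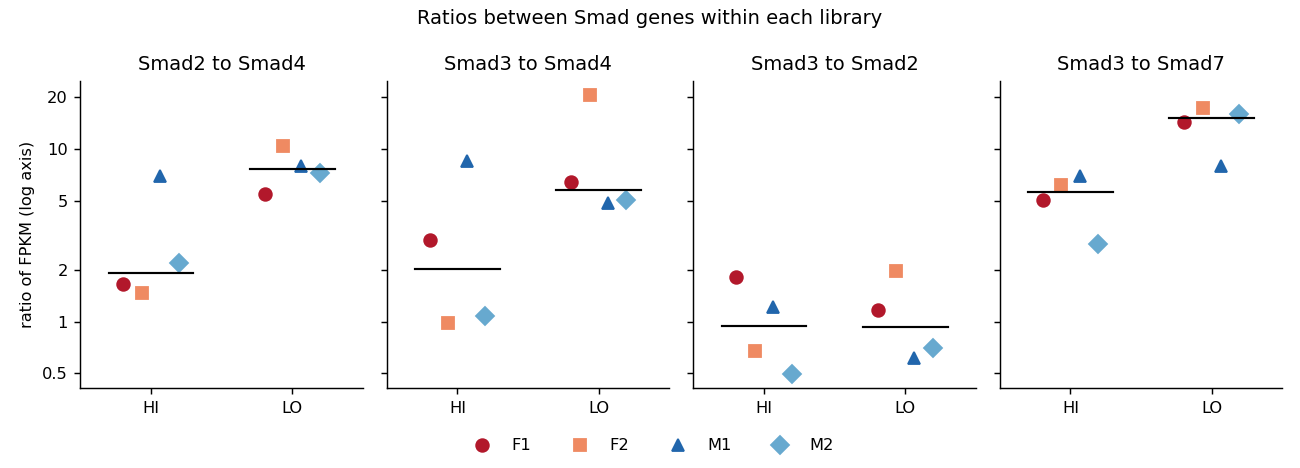
Ratios of FPKM between Smad genes within each library on a log axis, for HI and LO libraries, with 1 point per library by label and the median of 4 libraries as a bar. For Smad3 to Smad7 the 4 LO libraries (7.96 to 17.3) lie above the 4 HI libraries (2.81 to 6.99), and for Smad2 to Smad4 only HI M1 (6.99) reaches the LO range. The ratios were formed after the values were seen, and all others shown overlap.

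The difference between LO and HI was also compared between the sexes. For no member did it differ between male and female libraries at an adjusted p below 0.05 in limma, and 0 members reached an unadjusted p below 0.05, where 0.0178% and 3.83% of all genes did. The genes called were 2, the T cell receptor segment Traj56 and the pseudogene Mpc1-ps. Smad3 had the largest estimate of the 10: its log2 difference was 1.24 in female and -0.28 in male libraries, a difference of -1.52 with a 95% interval from -3.57 to 0.53 (limma adjusted p = 0.999). The Smad3 value rested on single HI libraries: it was -0.72 without HI F2, -0.70 without HI M1, -2.32 without HI F1 and -2.34 without HI M2. For Smad2 the values were 0.78 and -0.04, and for Smad7 -0.24 and -1.35. The difference for Smad7 was -1.11, with -0.26 without HI F2 and -1.96 without HI F1, and without HI M1 it was -0.94 and larger in size than that of Smad3. That for Smad2 was -0.82, and -0.48 without LO F1. With 2 libraries per sex and group the intervals are wide.

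Some of the spread among members followed libraries. LO F1 was the highest of the 4 LO libraries for 7 of the 10 genes (Tgfb1, Smad2, Smad4, Smad7, Ski, Skil and Tgif1), and it was the highest for 28.5% of all tested genes. HI F1 was the highest HI library for 5 of the 10, against 23.3% of all tested genes. The immediate early gene Fos, which rises within minutes when cells are stimulated or stressed, read 1518 and 442 FPKM in HI F1 and HI M1, and 1454 and 441 in LO F1 and LO M1. It read 46.0 and 23.6 in HI F2 and HI M2, and 28.9 and 20.8 in LO F2 and LO M2. Smad3 was high in the HI libraries numbered 1 but not in LO M1. With the library number as a covariate, an alternative added after the data were seen, the adjusted p of Smad3 was 0.648 and no member passed. Whether the difference in Fos has a part in the Smad3 values was not tested.

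Around these 10 genes, 118 others of the pathway were read from 8 lists, of which 84 passed the filter. Of the 84, 11 were higher and 7 lower in LO cells at an adjusted p below 0.05, or 21.4%, where 8.29% of all genes passed. Most of these calls came from the lists of genes taken as induced or repressed by TGF-beta, which hold many genes of T cell differentiation. The lists were chosen with earlier results of these data known, so the share of 21.4% is not a test of the pathway. Among the lists of signalling components, 3 genes fell and 1 rose. They were 2 of 5 tested other receptors, 1 of 17 ubiquitin and phosphatase regulators (5.88%) and 1 of 13 nuclear partners (7.69%). The ligand and latency list (6 tested), the other Smads and anchors (5) and the non-Smad arm (10) had 0.

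Of 16 ligand and latency genes, 6 were tested and 0 passed (limma, 1 with an unadjusted p below 0.05). Lrrc32, which encodes GARP, the docking receptor that holds latent TGF-beta on the Treg surface, is that gene and is named after its values were seen. It was at 35.0, 75.4, 35.8 and 73.4 FPKM in HI and 11.3, 27.8, 15.5 and 29.8 in LO libraries, without overlap. In both groups the libraries numbered 2 lay above those numbered 1. The log2 difference was -1.35 (SE 0.38, limma adjusted p = 0.0607). It passed with the library label as a replicate block (adjusted p = 0.0092) and with the library number as a covariate (adjusted p = 0.00202). In the other 18 of 20 alternatives it did not pass, at an adjusted p of up to 0.15. Nrros, a relative of Lrrc32 that also anchors latent TGF-beta, was at 83.1 ± 24.9 in HI and 73.3 ± 38.9 in LO (SD, n = 4 each; limma adjusted p = 0.729). Itgav, an integrin chain that takes part in releasing TGF-beta, ranged over 0.362 to 24.3 FPKM among HI and 7.601 to 33.05 among LO libraries, and its partner Itgb8 over 0.229 to 1.82 and 0.585 to 4.17. Tgfb2 was listed at 0 in all 8 libraries and Tgfb3 at no more than 0.782.

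Of 14 other receptors and co-receptors, 5 were tested, 0 rose and 2 fell. Acvrl1, the type I receptor ALK1 best known from endothelial cells, was at 32.8, 16.0, 33.8 and 15.7 FPKM in HI and 4.08, 0, 3.55 and 0.839 in LO libraries (log2 difference -3.24, SE 0.548, limma adjusted p = 0.00555). No LO library reached the HI range, but without HI M1 and LO M2 together, the shallowest and the deepest, the call was lost (log2 difference -2.90, limma adjusted p = 0.0517). Tgfbr3, the co-receptor betaglycan that presents ligand to the type II chain, was at 6.56, 3.69, 3.21 and 4.02 FPKM in HI and 0, 0.248, 1.03 and 1.05 in LO libraries. Its log2 difference of -1.79 (SE 0.379, limma adjusted p = 0.017) was lost with the library label as a replicate block (adjusted p = 0.0589), with a pseudocount of 0.1 (0.0608) and without HI F1 (0.0501) or LO F2 (0.0542). Fkbp1a, which encodes a protein that binds and restrains type I receptors, was at 724 FPKM or more in all 8 libraries (limma adjusted p = 0.631).

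Of 8 other Smads and anchor genes, 5 were tested and 0 passed (limma, 1 with an unadjusted p below 0.05, Strap at adjusted p = 0.23). Smad1 and Smad5, which carry signals of bone morphogenetic proteins, were at 9.60 ± 1.84 and 5.14 ± 1.43 FPKM in HI and at 6.74 ± 1.42 and 3.58 ± 0.166 in LO libraries (SD, n = 4 each; limma adjusted p = 0.391 and 0.507). Smad6, the other inhibitory Smad, and Smad9 were listed at 0 in all 8 libraries, so of the inhibitory Smads Smad7 alone had values above 0.

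Of 17 ubiquitin and phosphatase regulators of Smads, all 17 were tested, 0 rose and 1 fell. Nedd4l, a ubiquitin ligase that targets activated Smad2 and Smad3, was at 6.22, 9.16, 4.88 and 6.65 FPKM in HI and 1.52, 0.95, 1.35 and 1.92 in LO libraries, 4.70-fold lower on average (log2 difference -1.65, SE 0.312, limma adjusted p = 0.0094). No LO library came near the HI range. The related ligase Wwp1 was at 2.77 ± 0.865 and 5.21 ± 1.05 FPKM in HI and LO (SD, n = 4 each; limma adjusted p = 0.214), and Smurf1, which works with Smad7 to degrade receptors, at 3.09 ± 1.44 and 1.23 ± 0.138 (limma adjusted p = 0.26). Pmepa1 and Ldlrad4, membrane proteins that sequester Smad2 and Smad3, did not pass (limma adjusted p = 0.776 and 0.709).

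Of 15 nuclear partners, 13 were tested, 1 rose and 0 fell. Sp1, a transcription factor that joins Smads on some promoters, was at 7.79, 5.77, 5.95 and 9.51 FPKM in HI and 18.4, 28.6, 29.4 and 9.994 in LO libraries (log2 difference 1.37, SE 0.359, limma adjusted p = 0.0453). LO M2 lay just above the HI range, and the call was lost in 11 of 20 alternatives, at an adjusted p of up to 0.13. They include each leave-out of HI F1, HI F2, HI M1, HI M2, LO F1, LO F2 and LO M1. Zeb1, a repressor that binds Smads, was at 33.8 ± 14.9 FPKM in HI and 13.9 ± 3.90 in LO libraries (SD, n = 4 each; limma adjusted p = 0.0669). Of 10 genes of the non-Smad arm, through which the receptors signal without Smads, all 10 were tested and 0 passed (limma, 1 with an unadjusted p below 0.05, Rhoa at adjusted p = 0.151).

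**Figure D4:**
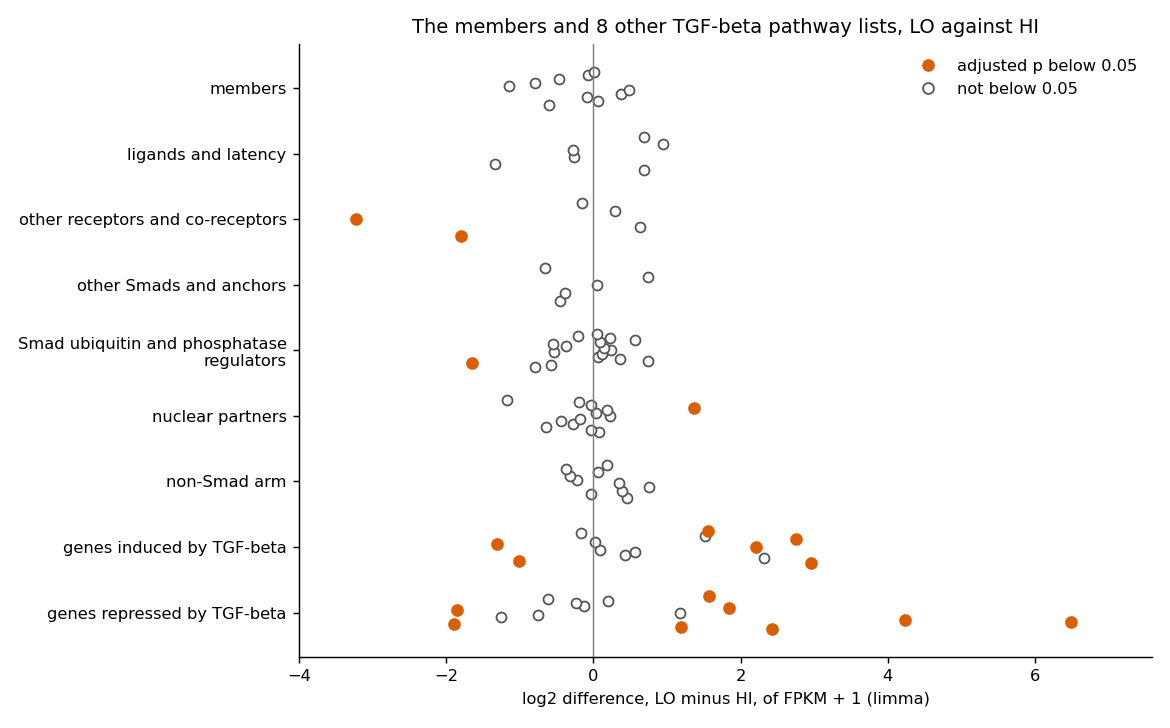
Log2 difference, LO minus HI, of FPKM + 1 (x axis) for the 10 members and for the tested genes of 8 other TGF-beta pathway lists (y axis), with filled orange points for genes with an adjusted p below 0.05 in limma. The members lie between -1.14 and 0.48 with 0 called, and most called genes are in the lists of induced (6 of 13) and repressed (8 of 15) genes, on both sides of 0.

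Of 20 genes that TGF-beta is known to induce in some cells, 13 were tested, 4 rose and 2 fell, with a median log2 difference of 0.56. Ccr8, a chemokine receptor of tissue Treg cells, rose 4.75-fold, with means of 25.03 ± 6.06 in HI and 119 ± 28.5 FPKM in LO (limma adjusted p = 0.00057, log2 difference 2.20). Gadd45b, a stress response gene, rose from 24.7 ± 5.73 to 82.1 ± 50.8, with LO F1 at 157 (limma adjusted p = 0.0239; 0.0515 to 0.072 without HI F2, HI M1, LO M1 or HI M1 and LO M2 together). Itgae, the CD103 chain, also rose. Those that fell were Cd9, a tetraspanin, from 166 ± 18.1 to 66.9 ± 13.5 (limma adjusted p = 0.0019), and Id3, an inhibitor of E proteins, from 174 ± 36.7 to 86.3 ± 22.2 (limma adjusted p = 0.0216). The call of Id3 was lost in 6 of 20 alternatives, at an adjusted p of 0.0521 to 0.0832. These were quantile normalization, scaling to protein-coding nuclear genes, and leaving out HI F2, HI M2, LO F1 or LO F2.

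Of 18 genes listed as repressed by TGF-beta in T or NK cells, 15 were tested, 6 rose and 2 fell, with a median log2 difference of 0.20. The direction that the list gives was not checked in these cells. Runx3, 1 of the 6 that rose (limma adjusted p = 0.041), is of uncertain place in it. Id2, an antagonist of E proteins, rose 3.45-fold, with means of 50.3 ± 21.6 in HI and 174 ± 41.1 FPKM in LO (limma adjusted p = 0.00634, log2 difference 1.85). Eomes, a T-box factor of cytotoxic cells, was at 6.75, 1.67, 2.59 and 3.91 FPKM in HI, and in LO it was listed at 0 in F1 and F2 and at 0.355 and 0.426 in M1 and M2 (limma adjusted p = 0.0183). Its call was lost without LO F1, without LO F2 and without HI M1 and LO M2 together (adjusted p = 0.0513 to 0.0579). Klrg1, Gzmb and Tbx21 also rose, and Myc fell. Called genes of both lists thus moved in both directions, and more of them were higher than lower in LO cells. Over all tested genes, 10 estimates lay above and 3 below 0 in the induced list. In the repressed list 8 lay above and 7 below.

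Markers of other cell types differed between the groups and stand beside the genes that fell. Of 8 B cell markers, 3 of 7 tested were lower in LO cells, Cd79a and Ms4a1 among them. Their summed FPKM was 146 to 244 in HI and 77.3 to 104 in LO, where Cd79b (75.9 on average) made up most of it. Cd79b, Ebf1, Cd22 and Blk overlapped between the groups and did not pass (limma adjusted p = 0.367 to 0.80). Pax5 was not tested and was at 0 in all LO libraries and in HI M1. Of 6 markers of plasmacytoid dendritic cells, 3 were lower in LO (Siglech, Klk1 and Ccr9), with sums of 378 to 624 in HI and 271 to 367 in LO. Irf8 and Bst2 made up most of these sums and did not pass (limma adjusted p = 0.49 and 0.415). Of 8 myeloid markers, 1 of 7 tested was lower (Csf1r), and the sums overlapped at 384 to 610 and 385 to 646. The part of such cells in the lower levels of Acvrl1, Tgfbr3, Nedd4l and Lrrc32 was not tested. On the LO side, 2 of 4 tested plasma cell markers were higher, Prdm1 and Jchain. Summed FPKM of that list was 111 to 143 in HI and 175 to 261 in LO libraries. Xbp1 and Sdc1 did not pass (limma adjusted p = 0.762 and 0.422), and Tnfrsf17 was not tested. Xbp1 averaged 112 FPKM in HI and 104 in LO. Of 2 tested NK markers, 1 was higher, Nkg7, which made up most of the NK sums of 52.4 to 115 and 148 to 287. The other, Klrb1c, did not pass (limma adjusted p = 0.787). Ncr1 and Klrk1 were not tested, with means of 1.61 and 4.84 in HI and 0.179 and 2.34 in LO. Whether the higher Prdm1, Jchain and Nkg7 came from such cells or from the Treg cells themselves was not tested. Of 2 CD8 T cell markers 1 was tested and 0 passed, and of 6 erythroid and platelet markers 2 were tested and 0 passed.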

How the data were processed

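Libraries were made with the SmartSeq2 protocol, per the labels. The authors deposited FPKM (fragments per transcript length and library size) in 1 table made with Cuffnorm per its name. FastQC, cutadapt, HISAT2 and the builds NCBIM37 and mm9 stand in the submitters' processing notes; neither annotation nor use of strand is stated in the sources used here. The series design text describes a single-cell experiment with other mice and was not used. Columns were matched to samples by title.

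Symbols came from GENCODE M21 by Ensembl ID (31840 of 36811 matched; 172 of 173 list entries). A gene was tested where 4 or more libraries reached 1 FPKM. Values on the scale of log2(FPKM + 1), computed here from the deposited FPKM, entered limma 3.58.1 (R 4.3.3), eBayes with trend and Benjamini-Hochberg adjustment at 0.05 over all 11260. On this scale folds of low genes are understated; a stated fold divides 1 group mean of FPKM by the other. The interaction with sex used all 8 libraries. Read totals are unknown; FPKM summed to 1494240 to 2142813 per library. Cuffnorm shares reads between models by estimate, so a 0 can be a failed estimate. The fit was tested on simulated data.

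Members, lists and motifs were chosen with earlier results of these data known. The named-gene rule took the 10 members, Bach2 and Foxp3, and per list up to 6 genes with adjusted p below 0.05; it also asked for genes most like a called member, and with no member called it took none. Any other gene named was picked with its values in view. Lists were ligands and latency, other receptors, other Smads and anchors, Smad ubiquitin and phosphatase regulators, nuclear partners, the non-Smad arm, and genes induced or repressed by TGF-beta. The alternatives tried were 3 other scalings, a smaller pseudocount (0.1), dropping the filter or raising it to 5 FPKM, other eBayes settings, sex or library number as a covariate, the label as a replicate block and left-out libraries. Deviations from the group means were correlated between HI and LO libraries. With equal labels the correlations were 0.052 (F1), 0.015 (F2), 0.070 (M1) and 0.113 (M2). With unequal labels they ran from -0.0995 to 0.058. These small values do not settle whether equal labels mean pairing. Fos and Junb, from high to low, had the same order of labels in HI and in LO libraries: F1, M1, F2 and M2. A shared animal and shared handling cannot be told apart there. Of the genes the rule took, 1 is not reported here.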

Additional observations from a re-analysis of the deposited data

Results flagged for a closer look

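In 3 of 58 groups of 4 libraries examined, 1 library stood apart from the others of its group on the scale of log2(FPKM + 1); chance gives about 1 in 20 groups. For Smad2, LO F1 was the highest of the 4 LO libraries, with a gap to the next of 0.86 of the group's range. For Ski, LO M1 was the lowest LO library, with a gap of 0.882 of the range. For Skil, HI M2 was the lowest HI library, with a gap of 0.869 of the range.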

How the results depend on the processing

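Of 200 values of the 10 members under alternatives, 186 kept their direction and their side of the threshold. The members called were 0, and 0 to 1 when a library was left out, the 1 being Smad4 without HI M1 (log2 difference -1.49). Estimates near 0 turned sign. Scaling to protein-coding nuclear genes moved the median of all genes from -0.03 to 0.16 and gave Tgfbr2 0.11 and Skil 0.11, and without HI M1 and LO M2 together Skil was at 0.017 and Tgif1 at -0.11. When libraries were left out in turn, Tgfbr1 ran from -0.24 to 0.28, Tgfbr2 from -0.15 to 0.014, Skil from -0.24 to 0.092, Tgif1 from -0.18 to 0.20 and Foxp3 from -0.13 to 0.15. Larger estimates kept their sign but not their size: Smad3 ran from 0.19 (without HI M2) to 0.78 (without LO M1), moving by over 1.5 times with each of the 8 libraries left out, and was 0.98 without HI M1 and LO M2 together. Smad2 ran from 0.19 (without LO F1) to 0.50, Tgfb1 from -0.41 to -0.95 (without LO F1), and Smad7 from -0.53 to -1.10, with -0.45 without HI M1 and LO M2 together. The 934 calls over all genes became 586 to 754 with a library left out, lowest without LO F2, and 771 with the replicate block, under which Tgfbr3 and Sp1 lost their calls among the pathway genes recomputed. Of the pathway genes, 11 higher became 7 to 11 and 7 lower became 4 to 7 with a library left out, and 4 were lower with the filter of FPKM at least 5. The 2 genes of the interaction with sex became 1 to 2 with a library left out and 1 with no filter. Depth limits the precision of genes near 1 FPKM, and Smad3, Smad4 and Smad7 could be called only from differences of 1.58 or more on the log2 scale.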
